A study of Mus musculus with 10 samples.

Results

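A total of 3190 H3K27Ac peaks were listed by both libraries of the same FFPE condition and lay well away from every peak of fresh frozen mouse liver. They were the peaks of replicate 1 at 65 °C with 5 min of sonication, on chromosomes 1 to 19, that overlapped a replicate 2 peak by at least 1 bp and were more than 5000 bp from the nearest fresh frozen H3K27Ac peak. They made up 5.37% of the 59431 peaks of replicate 1 on these chromosomes and 7.95% of the 40101 that replicate 2 also held. They covered 1.43 Mb of the 43.7 Mb in that list, or 3.28% of its length.

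H3K27Ac is acetylation of lysine 27 of histone H3. It is deposited by the acetyltransferases p300 and CBP and marks active promoters and active enhancers, which are often far from genes. H3K4me2, dimethylation of lysine 4 of the same histone, is laid down by MLL-family enzymes and covers promoters and enhancers more broadly, including enhancers that lack acetylation. In liver most cells are hepatocytes, and acetylated enhancers there are commonly bound by factors such as HNF4A, FOXA and C/EBP proteins.

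The peaks came from normal mouse liver that was formalin-fixed and paraffin-embedded (FFPE). In FiTAc-seq, sections were heated overnight in a buffer with 1% SDS and sonicated before immunoprecipitation. The pair of libraries that defined the peaks was made at 65 °C with 5 min of sonication, and further H3K27Ac libraries at 50 °C with 5 min, at 50 °C with 40 min, at 65 °C with 40 min and at 80 °C with 40 min, with 1 library each. FiT-seq, which uses proteinase K to break up the sections, gave 1 H3K27Ac and 1 H3K4me2 library from FFPE liver. The fresh frozen library came from frozen liver crosslinked for 10 min in 1% formaldehyde. The H3K27Ac libraries shared the same antibody lot. The labels give no strain, age or number of animals and do not say whether frozen and FFPE tissue shared an animal, so a difference between tissues cannot be told apart from a difference between animals. Nor do they say whether the 2 libraries of the pair came from separate blocks or animals, so the agreement of the pair may be technical. Each library is bulk tissue, in which a site acetylated in fewer cells and a weaker mark in every cell cannot be told apart. Depth is unknown, since the lists hold no read counts.

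The score is the authors' value for a peak, taken to be a −log10 q-value, and is used here to describe and rank peaks within a list. The lists held 60244 and 56645 peaks in the pair, 38410 in the 50 °C/5 min list, 65332 in the 50 °C/40 min list, 64146 in the 65 °C/40 min list, 11751 for H3K4me2 and 48250 in fresh frozen liver. Only 120 peaks were listed for FiT-seq H3K27Ac and 65 at 80 °C. A peak is called met where a list holds a peak that overlaps it by at least 1 bp. Intervals are 95% Wilson intervals for shares and Newcombe intervals for differences between shares. They cover counting error only and treat peaks as independent, which neighbouring peaks are not. With 1 library per list outside the pair, no p-value compares groups of peaks.

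Both libraries of the pair and the fresh frozen list chose these peaks, so their width, score, rank and distance are given as a description. Their medians lay near those of the replicate 1 list, whose peaks had a median width of 354 bp, a median score of 7.54 and a median rank of 30170. The median width of the far peaks was 328 bp, with 25% at or under 212 bp and 10% above 874 bp, and 232 were at least 1000 bp wide. The median score was 6.73 in replicate 1, from 2.21 to 70.7, and 6.63 in replicate 2, with median ranks of 31794 and 29258. Only 7 were among the 5000 highest peaks of replicate 1, 56 among the 10000 highest, and 88 had a score of 20 or more. Of all 59431 replicate 1 peaks, 6171 scored from 20 up to 40 and 4860 scored 40 or more, against 81 and 7 far peaks. The upper quartile of the score was 8.99 for far peaks and 14.1 for all peaks, and the top decile 12.6 and 34.5. The upper part of the list thus held few far peaks. Scores of the 2 libraries over the 3190 peaks had a Spearman rho of 0.40. A total of 750 of them met a replicate 2 peak that another of them also met, so they are not all separate sites.

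The distance to the nearest fresh frozen peak had a median of 11200 bp. It was at most 24226 bp for 75% of the peaks, above 83932 bp for 10%, and reached 1367826 bp. The 274 peaks just inside the threshold, at 5001 to 5497 bp, had a median width of 340 bp and a median score of 6.73. The 353 replicated peaks just outside it, at 4501 to 4997 bp, had medians of 337 bp and 6.73. All 3 other long FiTAc-seq lists met 18.6% of the peaks just inside and 17.8% of those just outside. None of these lists met 25.2% and 22.4%, and H3K4me2 met 1.46% and 0.850%, in the same order. The threshold thus separates neighbouring peaks that look alike in width, score and the share met by all 3 lists.

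Recurrence in the 3 long FiTAc-seq lists that the rule did not use was partial. The 50 °C, 5 min list met 844 of the 3190 peaks, or 26.5% (25.0 to 28.0), where it met 35.9% of all replicate 1 peaks. The 50 °C, 40 min list met 1549, or 48.6% (46.8 to 50.3), against 63.3% of all peaks. The 65 °C, 40 min list met 1443, or 45.2% (43.5 to 47.0), against 61.1% of all peaks. All 3 lists met 415 of them, 13.0% (11.9 to 14.2), and none met 1077, 33.8% (32.1 to 35.4). Over all replicate 1 peaks these shares were 29.9% and 26.7%. The share met by all 3 was 4.87% where a midpoint had to fall in the other peak, and 6.16% with replicate 2 and 7.39% with replicate 1 left out of the rule. The peaks far from fresh frozen sites were thus found again less often than the average replicate 1 peak in each list. This comparison is not matched on score, and it changed with score. From a score of 5 up to 10, the 50 °C, 5 min list met 23.9% of far peaks and 18.6% of all peaks. All 3 lists met 10.5% and 10.1% there. From 10 up to 20 the far peaks were lower, with 42.2% and 50.1% in the 50 °C, 5 min list and 28.1% and 44.5% in all 3.

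Those found again lay near or somewhat below the middle of the other lists. Where a peak was listed, its median rank was 23053 of 38410 in the 50 °C/5 min list, 36441 of 65332 in the 50 °C/40 min list and 33671 of 64146 in the 65 °C/40 min list. The median scores there were 4.75, 7.86 and 7.08. The score in replicate 1 and the score in the other list had a Spearman rho of 0.26 over 844 peaks in the 50 °C/5 min list, 0.30 over 1549 in the 50 °C/40 min list, and 0.30 over 1443 in the 65 °C/40 min list. These correlations are descriptive, since neighbouring peaks share a region and are not independent. The peaks met by all 3 lists had a median width of 687 bp and a median score of 10.2, and those met by none 246 bp and 5.66. The 40 min lists had 1141 of the peaks in common, whereas 229 were met in the 65 °C/40 min list alone, 314 in the 50 °C/40 min list alone and 262 in the 50 °C/5 min list alone.

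The same lists were applied to 3 other groups of replicate 1 peaks. The 13893 replicated peaks off fresh frozen peaks but no more than 5000 bp away had almost the same width and score, with medians of 329 bp and 6.73. All 3 lists met 13.0% of the far peaks and 19.2% of these flanking peaks, a difference of -6.17 percentage points (-7.47 to -4.79). None of the lists met 33.8% of the far peaks and 20.6% of the flanking peaks, a difference of 13.2 points (11.4 to 15.0). By list the difference was -3.43 points (-5.11 to -1.70) in the 50 °C/5 min list, -15.9 points (-17.8 to -14.0) in the 50 °C/40 min list and -16.0 points (-17.9 to -14.1) in the 65 °C/40 min list.

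Replicated peaks on a fresh frozen peak numbered 23018 and had a median width of 988 bp and a median score of 17.9. All 3 lists met 13.0% of the far peaks and 62.5% of these, a difference of -49.5 points (-50.8 to -48.1). The 4214 far peaks that replicate 2 did not hold gave the opposite contrast, with 13.0% of the replicated far peaks and 0.973% of the unreplicated ones met by all 3 lists, a difference of 12.0 points (10.9 to 13.3). The unreplicated peaks were narrower and lower, with medians of 197 bp and 4.78. Far peaks held by both libraries of the pair were thus met more often by libraries that had no part in the choice, and were also wider and higher.

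**Figure D1:**
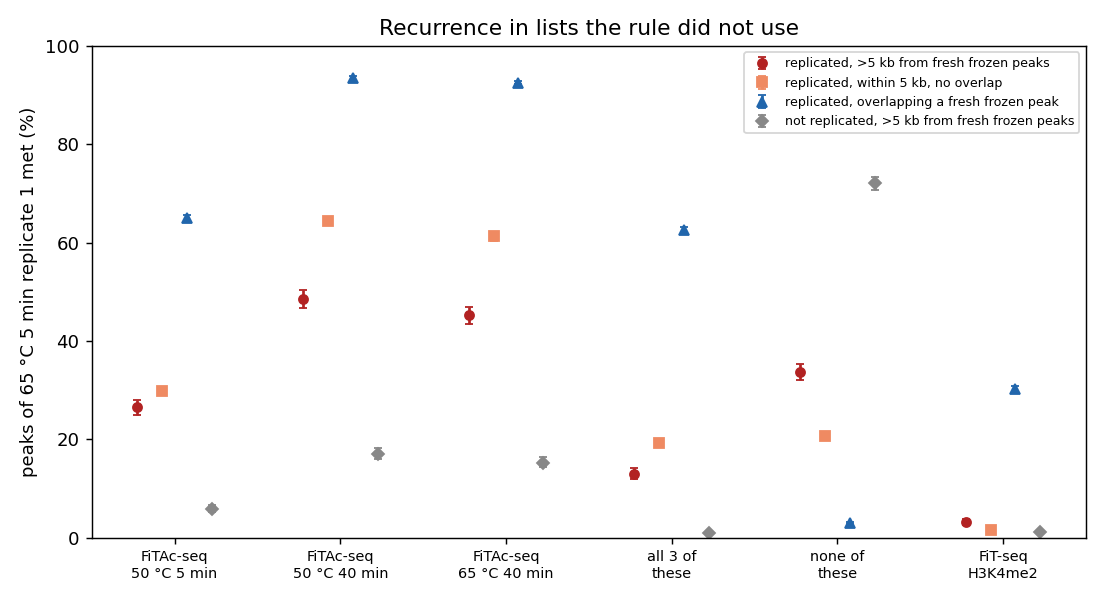
Share of replicate 1 peaks at 65 °C with 5 min of sonication (vertical axis, percent) met by each list on the horizontal axis, for the far replicated peaks (red circles), flanking replicated peaks (orange squares), replicated peaks on fresh frozen peaks (blue triangles) and far peaks without a replicate 2 peak (grey diamonds). Bars are Wilson 95% intervals; the red circles lie at 26.5%, 48.6% and 45.2% in the 3 FiTAc-seq lists, below the flanking and above the unreplicated peaks.

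The gap between far and flanking peaks was also present among peaks of like score. Among peaks with a replicate 1 score from 5 up to 10, all 3 lists met 10.5% of 1709 far peaks and 13.8% of 7444 flanking peaks, a difference of -3.32 points (-4.90 to -1.60). From 10 up to 20 the shares were 28.1% of 612 and 38.9% of 2952, a difference of -10.8 points (-14.7 to -6.74). From 20 up to 40 they were 48.1% of 81 and 75.5% of 388, a difference of -27.4 points (-38.7 to -15.7). At a score of 40 or more the shares were 85.7% of 7 and 96.0% of 25, and the interval of the difference, -47.5 to 9.18 points, included 0. With the flanking shares weighted to the score bins of the far peaks the overall difference was -5.33 points, and with score and width weighted together -5.28 points. From 2 up to 5 the difference was -3.11 points (-4.34 to -1.58), so far peaks were met less often in each score bin below 40.

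**Figure D2:**
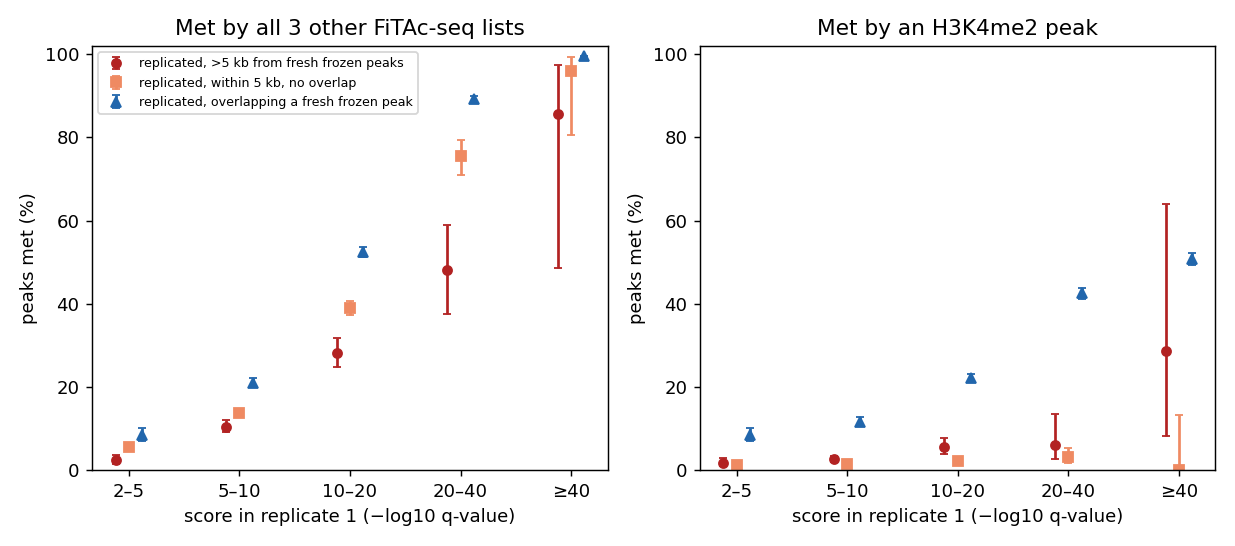
Share of peaks met (vertical axes, percent) by all 3 other long FiTAc-seq lists (left) and by an H3K4me2 peak (right), by replicate 1 score (horizontal axes, −log10 q-value in bins), for far replicated peaks (red), flanking replicated peaks (orange) and replicated peaks on fresh frozen peaks (blue), with Wilson 95% intervals. In the bin of 10 to 20 the left panel has 28.1% of far peaks and 38.9% of flanking peaks, and the right panel 5.56% and 2.13%. For H3K4me2 the Newcombe interval of far minus flanking included 0 from 2 up to 5 (-0.398 to 1.71 points) and from 20 up to 40 (-1.08 to 10.7 points). It lay above 0 from 5 up to 10, from 10 up to 20 and, with 7 far peaks, at 40 or more.

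Recurrence fell with distance from fresh frozen peaks. Flanking peaks were met by all 3 lists in 18.2% of 6824 cases up to 1000 bp, 20.5% of 3166 from there to 2000 bp and 19.9% of 3903 from there to 5000 bp. Beyond the threshold the share was 16.4% (14.6 to 18.4) of 1428 peaks up to 10000 bp, 13.2% (11.0 to 15.7) of 819 up to 20000 bp and 9.67% (7.35 to 12.6) of 486 up to 50000 bp. It was 6.97% (4.19 to 11.4) of 201 peaks up to 100000 bp and 4.69% (2.70 to 8.01) of the 256 peaks farther out. In the same 5 bins the share met by none of the lists was 27.1%, 30.4%, 44.7%, 44.3% and 52.7%. Median scores differed little between these bins, at 6.73, 6.73, 6.46, 6.73 and 7.87.

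Each list was also followed on its own. In the bin of 5001 to 10000 bp and in that beyond 100000 bp, the 50 °C, 40 min share was 57.0% (54.4 to 59.5) and 24.6% (19.7 to 30.2). At 65 °C and 40 min the shares at these ends were 50.8% (48.2 to 53.4) and 31.2% (25.9 to 37.2). At 50 °C and 5 min they were 28.7% (26.4 to 31.1) and 21.5% (16.9 to 26.9). That these intervals overlap does not show that the share stayed level, and an interval of the difference was not computed. Differences between lists in this slope were not tested.

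**Figure D3:**
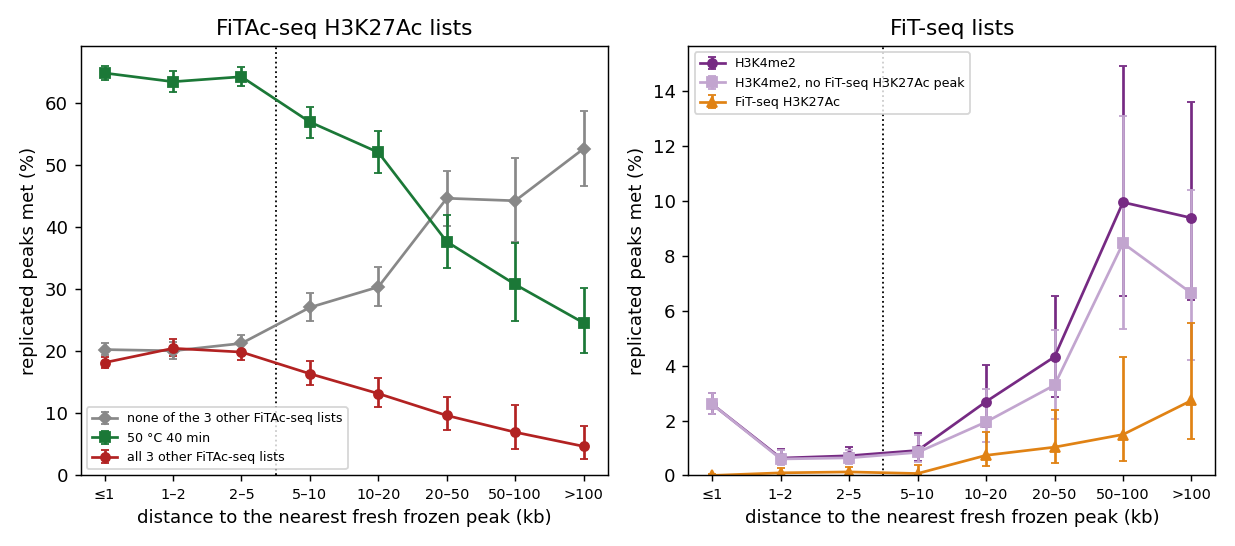
Share of replicated peaks off fresh frozen sites met by FiTAc-seq lists (left) and FiT-seq lists (right), in percent on the vertical axes, by distance to the nearest fresh frozen peak in kb on the horizontal axes; the dotted line marks the 5000 bp threshold and bars are Wilson 95% intervals. To the right of the line the share met by all 3 lists falls to 4.69% while the H3K4me2 share reaches 9.95% and 9.38% in the last 2 bins.

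H3K4me2 was rare on these peaks but behaved unlike H3K27Ac recurrence. It met 100 of the 3190, or 3.13% (2.58 to 3.80), where 13.1% of all replicate 1 peaks had it. The share was 3.13% in far peaks and 1.62% in flanking peaks, a difference of 1.52 points (0.921 to 2.21), and 30.3% in peaks on fresh frozen sites, a difference of -27.1 points (-27.9 to -26.2). It went up with distance, from 0.910% (0.533 to 1.55) at 5001 to 10000 bp to 2.69% (1.78 to 4.03), 4.32% (2.84 to 6.52), 9.95% (6.53 to 14.9) and 9.38% (6.38 to 13.6) in the bins beyond. The sign against flanking peaks depended on the threshold. With more than 2000 bp in place of 5000 bp the difference was -0.167 points, because flanking peaks within 1000 bp had a share of 2.59% and those from there to 5000 bp at most 0.717%.

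Some of the peaks with H3K4me2 were also in the short FiT-seq H3K27Ac list. FiT-seq H3K27Ac met 22 of the far peaks, 0.690% (0.456 to 1.04), against 0.0757% of all replicate 1 peaks, and all 22 also had an H3K4me2 peak. These were 22 of the 43 replicated peaks that the FiT-seq H3K27Ac list met at all. Their median width was 226 bp. Their share met was 59.1% (38.7 to 76.7) by the 50 °C, 5 min list, 9.09% (2.53 to 27.8) by the 50 °C, 40 min list and 68.2% (47.3 to 83.6) by the 65 °C, 40 min list. The 80 °C list met 3 far peaks, 0.0940% (0.0320 to 0.276), against 0.0841% of all peaks, and these 3 were among the 22. Of the 100 H3K4me2 peaks, 9 were among the 100 highest of that list, and all 9 had a FiT-seq H3K27Ac peak. Without the 22 peaks the H3K4me2 share was 2.46% (1.98 to 3.06) and the difference from flanking peaks 0.843 points (0.309 to 1.47).

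The other 78 peaks with H3K4me2 had a median width of 458 bp, a median score of 8.99 and a median distance of 31847 bp from fresh frozen peaks. Of these, all 3 other FiTAc-seq lists met 8.97% (4.42 to 17.4) and none met 37.2% (27.3 to 48.3). For the 3090 peaks without H3K4me2 these shares were 13.1% (12.0 to 14.4) and 33.8% (32.1 to 35.5), which lie within the intervals of the peaks with H3K4me2, so a difference was not detectable with 78 peaks. The share of far peaks with H3K4me2 and no FiT-seq H3K27Ac peak still went up with distance, to 8.46% (5.35 to 13.1) at 50001 to 100000 bp and 6.64% (4.19 to 10.4) beyond, against 0.840% (0.481 to 1.46) at 5001 to 10000 bp.

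Most of the far peaks had near neighbours, as did most peaks of the whole replicate 1 list. Of the 3190, 2182 or 68.4% lay within 12.5 kb of another, in 681 clusters of 2 or more, and 1008 stood alone. The same share was not computed over all replicate 1 peaks. At the same gap the 59431 replicate 1 peaks formed only 15529 regions, so at most 15529 of them stood alone. Clustering is thus not particular to the far peaks, for which only other far peaks were counted as neighbours. With peaks within 500 bp merged in every list, 38.6% of the then 2014 peaks were clustered, so the share depended on how peaks were delimited. Clustered peaks were met by all 3 lists in 15.6% (14.2 to 17.2) of cases and single peaks in 7.34% (5.89 to 9.12). H3K4me2 ran the other way, with 1.24% (0.852 to 1.79) of clustered and 7.24% (5.80 to 9.01) of single peaks. Of the 22 peaks with FiT-seq H3K27Ac, 21 were single.

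All replicate 1 peaks were then stitched at gaps of up to 12.5 kb. Of the far peaks, 1967 or 61.7% (60.0 to 63.3) fell in a stitched region that also held a fresh frozen peak, and 1223 or 38.3% in one that held none. All 3 lists met 8.09% (6.69 to 9.76) of the peaks in regions without a fresh frozen peak and 16.1% (14.5 to 17.8) of those in regions with one. H3K4me2 met 6.46% (5.21 to 7.98) of the peaks in regions without a fresh frozen peak and 1.07% (0.699 to 1.63) of those in regions with one. Whether a region holds a fresh frozen peak depends in part on the distance to such peaks. These contrasts were not separated from the trends with distance given above. Of the 15529 stitched regions in all, 2213 held no fresh frozen peak, and 711 of these held a far peak. Most regions thus held a fresh frozen peak. The share of all replicate 1 peaks in such regions was not computed, so the 61.7% stands without a background.

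The clusters with 10 or more far peaks numbered 13, held 204 of them and spanned 13209 to 61530 bp. They fell into different kinds by the other lists. In 5 of them each of the 3 other long FiTAc-seq lists had at least 10 peaks, whereas 4 had no peak in either 40 min list and 2 of these 4 had none in the 50 °C/5 min list either. An H3K4me2 peak lay in 1 of the 13. All coordinates are on mm9, and no gene is named because annotation of that build was not used here.

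The largest cluster was a 61530 bp stretch on chromosome 2, 27540645 to 27602174, with 41 far peaks that covered 32103 bp. Fresh frozen peaks lay 5581 bp before and 5774 bp after it. It held 39 peaks in the 50 °C/5 min list, 67 in the 50 °C/40 min list and 64 in the 65 °C/40 min list, beside 55 and 57 in the pair, and no H3K4me2 peak. All 3 other lists met 18 of the 41 far peaks and none met 4. Each long FiTAc-seq list thus held many peaks in this stretch, and peaks of each continued past both ends. The rule kept far peaks away from fresh frozen peaks. The ends of the stretch and its lack of fresh frozen peaks were therefore largely set by the choice. The next cluster was chromosome 19, 5809746 to 5838692, with 19 far peaks and 15, 23 and 25 peaks in the 50 °C 5 min, 50 °C 40 min and 65 °C 40 min lists. A fresh frozen peak lay between its far peaks, more than 5000 bp from each.

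A pair of other large clusters looked different. Chromosome 6, 52161858 to 52184567, held 18 far peaks, with 19 and 21 peaks in the pair, 7 in the 50 °C/5 min list and 0 in both 40 min lists. Fresh frozen peaks lay 7581 bp before and 251921 bp after it, and both 40 min lists had a peak at the nearer one. Chromosome 2, 74527119 to 74550644, held 15 far peaks, with 16 and 18 peaks in the pair, 1 in the 50 °C/5 min list, 0 in both 40 min lists and 1 H3K4me2 peak. Its nearest fresh frozen peaks were 110161 bp before and 112906 bp after it. None of the 3 other lists met 13 of the 18 and 14 of the 15. Sonication time cannot be told apart here from anything else that sets these single libraries apart.

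A cluster on chromosome 7, 27086737 to 27101419, was intermediate. It held 16 far peaks, with 18 and 18 peaks in the pair, 1 in the 50 °C/5 min list, 10 in the 50 °C/40 min list and 11 in the 65 °C/40 min list. The nearest fresh frozen peaks were 132599 bp before and 466420 bp after it.

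**Figure D4:**
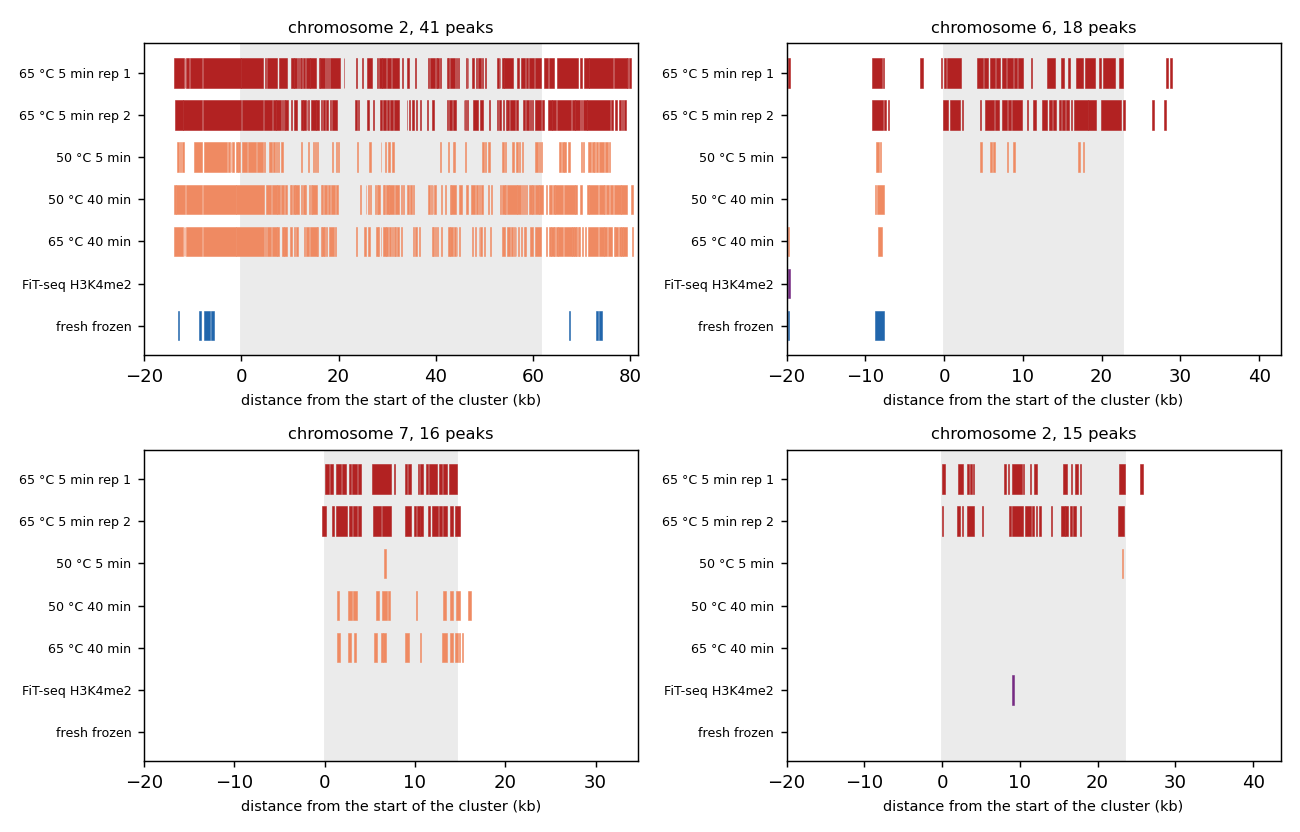
Peaks of each list (rows, bars drawn to scale) along 4 of the 5 clusters with most far peaks, in kb from the start of the cluster on the horizontal axes; grey shading is the cluster, with 20 kb shown on either side. The chromosome 2 cluster of 41 peaks holds 39, 67 and 64 peaks in the 50 °C 5 min, 50 °C 40 min and 65 °C 40 min rows, whereas the chromosome 6 cluster of 18 and the chromosome 2 cluster of 15 have no bar in either 40 min row within the shading.

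A stretch of chromosome 5, chosen after its values were seen, held 3 of the 13 large clusters. From 146176320 to 146681921, a span of 505602 bp, replicate 1 had 73 peaks and replicate 2 had 59, and 56 of the replicate 1 peaks were far peaks. Fresh frozen liver and H3K4me2 had 0 peaks there. The other lists had 19 peaks in the 50 °C/5 min list, 18 in the 50 °C/40 min list and 25 in the 65 °C/40 min list. All 3 met 8 of the 56 and none met 36. Of the 88 far peaks with a score of 20 or more, 10 lay in this stretch.

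The highest far peaks were named by their mean rank in the pair, which the rule used, so their height there is a description. The first was the 543 bp site at chromosome 17, 4626111 to 4626653, with scores of 65.5 and 116 in the pair, 37.3 in the 50 °C/5 min list, 8.22 in the 50 °C/40 min list and 25.1 in the 65 °C/40 min list. It had scores of 78.7 for H3K4me2 and 246 in FiT-seq H3K27Ac. Its rank was 32 of 38410 in the 50 °C/5 min list, 33559 of 65332 in the 50 °C/40 min list and 9555 of 64146 in the 65 °C/40 min list, so it stood among the highest peaks of the 50 °C/5 min list and near the middle of the 50 °C/40 min list.

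The second, chromosome 13, 51298081 to 51298426, scored 65.7 and 45.9 in the pair, 11.8 in the 50 °C/5 min list, 10.0 in the 50 °C/40 min list, 12.8 in the 65 °C/40 min list and 3.88 for H3K4me2. It was 346 bp wide and met by no FiT-seq H3K27Ac peak. Its rank in the 3 other long FiTAc-seq lists was 4213, 28512 and 20079, in the order in which their scores are given.

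Of the 10, 3 wider sites lay in the chromosome 5 stretch. Chromosome 5, 146229090 to 146230616, scored 52.0 and 58.1 in the pair and 9.12, 8.37 and 10.6 in the 50 °C 5 min, 50 °C 40 min and 65 °C 40 min lists. Its widths were 1527 and 1707 bp in the pair and 420, 228 and 323 bp in those lists. Chromosome 5, 146615219 to 146617543, scored 70.7 and 41.9 in the pair and 7.57, 7.86 and 10.7 in those lists. Its widths were 2325 and 1930 bp in the pair and 276, 243 and 551 bp in those lists. The highest-scoring peak at both sites was thus broader in the pair than in the 3 other lists. A site split into several peaks in a list counts as narrow by this measure. The ranks in those lists were 8101, 33371 and 24687 for the first of the 2 and 10642, 36441 and 23147 for the other. Chromosome 5, 146394853 to 146398100, a 3248 bp peak 292439 bp from any fresh frozen peak, scored 30.6 and 42.5 in the pair and 11.6, 15.4 and 14.7 in those lists.

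The others of the 10 were on chromosomes 6, 7, 18, 15 and 9. Chromosome 6, 51650346 to 51653318, scored 55.0 and 45.1 in the pair and 7.09, 21.6 and 18.7 in the 50 °C 5 min, 50 °C 40 min and 65 °C 40 min lists. Chromosome 7, 27091930 to 27094129, in the cluster of 16, scored 35.4 and 30.5 in the pair and 8.57, 7.86 and 7.94 in those lists. Chromosome 18, 82871735 to 82872691, scored 45.0 and 24.7 in the pair and 11.3, 19.3 and 18.6 in those lists. In the same lists the chromosome 6 site ranked 13260, 12305 and 13305, the chromosome 7 site 8312, 36441 and 32276, and the chromosome 18 site 4966, 13968 and 13333. All 3 thus stood in the upper part of the 50 °C/5 min list, and the chromosome 7 site near the middle of the 40 min lists. Chromosome 15, 84571524 to 84572831, scored 29.3 and 35.7 in the pair and 15.7 in the 50 °C/5 min list, with no peak in either 40 min list. Chromosome 9, 8017635 to 8017847, scored 30.0 and 34.2 in the pair, 9.96 and 14.1 in the 40 min lists at 50 °C and 65 °C, and had no peak in the 50 °C/5 min list.

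**Figure D5:**
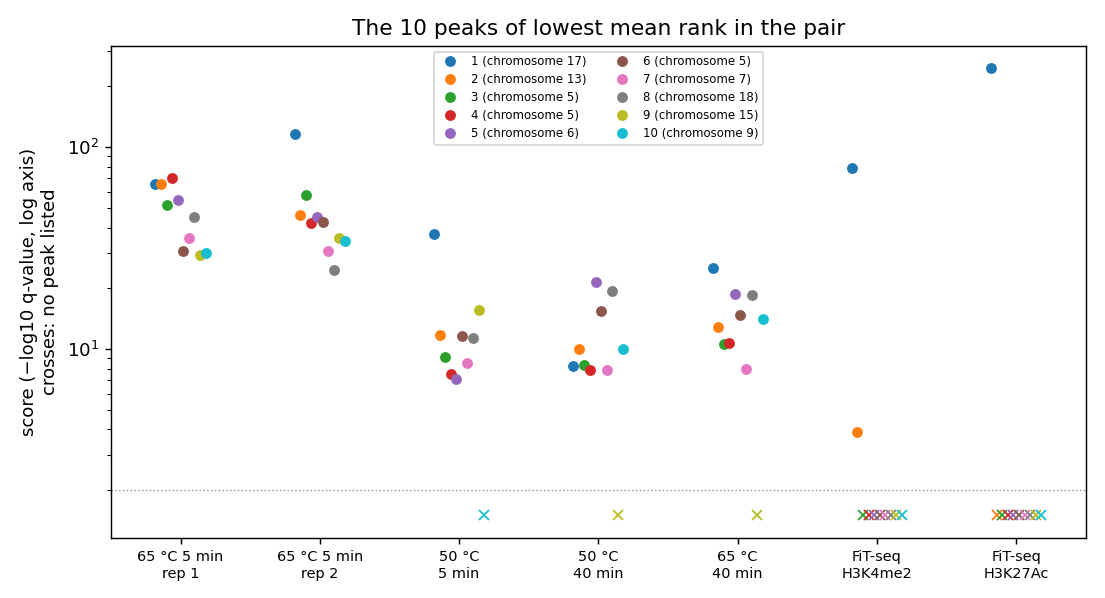
Score (−log10 q-value, vertical log axis) of the 10 far peaks with the lowest mean rank in the pair, in each list on the horizontal axis; colours number the peaks by mean rank and crosses mark lists with no peak there. The dotted line is at a score of 2, about the lowest in the lists; scores run from 24.7 to 116 in the pair and from 7.09 to 37.3 in the 3 other long FiTAc-seq lists, which differ in length and may differ in depth, and 8 of the 10 have no H3K4me2 peak.

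The widest far peaks were not the highest. The widest, chromosome 6, 38070097 to 38074812, was 4716 and 4752 bp wide in the pair, 3121 bp in the 50 °C/5 min list, 253 bp in the 50 °C/40 min list and 147 bp in the 65 °C/40 min list. The next, chromosome 2, 27540645 to 27545193, opens the largest cluster. It was 4549 and 4422 bp wide in the pair, 1661 bp in the 50 °C/5 min list, 5662 bp in the 50 °C/40 min list and 5718 bp in the 65 °C/40 min list. Outside replicate 1 these are widths of the highest-scoring peak that a list held at the site, so a site split into several peaks counts as narrow. In the 50 °C/5 min list the chromosome 2 site held separate peaks at 0.108 to 1.097, 1.447 to 3.108 and 3.254 to 4.371 kb from its start. By this measure the chromosome 6 peak was broad in the 5 min lists only. The chromosome 2 peak was broader in the 40 min lists than in any 5 min list, which may reflect how peaks were split. Chromosome 19, 12535052 to 12539510, chromosome 15, 58805277 to 58809269, and chromosome 6, 115597076 to 115600351, followed, with widths of 4459, 3993 and 3276 bp in replicate 1. Each of the 5 widest had a peak in all 3 other FiTAc-seq lists and none had H3K4me2. Among the 72 far peaks of at least 1600 bp, all 3 lists met 73.6% and H3K4me2 met 2.78%. A wide peak also meets the overlap of 1 bp more easily than a narrow one.

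Far peaks met by all 3 other FiTAc-seq lists and by H3K4me2 numbered 9, and 7 of these had no FiT-seq H3K27Ac peak. After the chromosome 17 and 13 sites came chromosome 9, 83011298 to 83012795, a 1498 bp peak 128175 bp from any fresh frozen peak. It scored 30.4 and 24.4 in the pair, 3.07 in the 50 °C/5 min list, 31.3 in the 50 °C/40 min list, 37.4 in the 65 °C/40 min list and 4.37 for H3K4me2. Chromosome 14, 104736091 to 104736334, scored 16.5 and 38.2 in the pair, 11.7 in the 50 °C/5 min list, 15.0 in the 50 °C/40 min list, 58.5 in the 65 °C/40 min list and 34.5 for H3K4me2. It was also listed in FiT-seq H3K27Ac with a score of 78.6 and at 80 °C with 9.62. Chromosome 4, 10832030 to 10832537, ranked 16583 and 12999 in the pair, 17696 in the 50 °C/5 min list, 13237 in the 50 °C/40 min list, 25851 in the 65 °C/40 min list and 7405 for H3K4me2.

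Among far peaks that none of the 3 other lists met, the highest was a 757 bp peak on chromosome 5, 146343973 to 146344729, with scores of 34.5 and 28.3 in the pair. A 231 bp peak on chromosome 2, 172896912 to 172897142, scored 27.9 and 24.0. A 219 bp peak on chromosome 1, 196294338 to 196294556, scored 24.9 and 20.4. None of the 3 had an H3K4me2 or FiT-seq H3K27Ac peak.

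The 3 most remote far peaks were 170, 325 and 353 bp wide, against a median of 328 bp over all far peaks. Chromosome 3, 124931303 to 124931472, lay 1367826 bp from any fresh frozen peak and scored 13.9 and 16.3 in the pair, 7.08 in the 65 °C/40 min list, 41.8 for H3K4me2 and 62.6 in FiT-seq H3K27Ac. Chromosome 12, 19252605 to 19252929, lay 1363375 bp away, scored 9.23 and 10.6 in the pair and 4.48 for H3K4me2, and had no peak in the 3 other FiTAc-seq lists. Chromosome 3, 49560482 to 49560834, lay 1262809 bp away and scored 6.73 and 10.0 in the pair and 7.19 in the 50 °C/40 min list. Of the 3190 far peaks, 21 were more than 500000 bp from a fresh frozen peak.

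Far peaks occurred on every chromosome from 1 to 19. They made up between 5.25% (4.27 to 6.44) of replicated peaks on chromosome 13, with 86 of 1639, and 9.99% (8.98 to 11.1) on chromosome 2, with 308 of 3083. The share met by all 3 other lists ran from 7.55% of 159 on chromosome 10 to 19.4% of 134 on chromosome 14.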

How the data were processed

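The submitters' processing notes name BWA, MACS2 and the mm9 build. Tool versions, the calling threshold and any control library are not given in the sources used here. The authors deposited 1 peak list per library with 5 columns, the last read as the −log10 of the q-value from its values. The labels' protocols name 2 library kits without assigning them to libraries. The input sample was not analysed here. Scores below 2 do not occur, and the depth of each library is unknown. The members and groupings were chosen with earlier results of these data known. Peaks were compared by overlap of at least 1 bp, and distance is the number of bases between peaks. Where a list held several peaks at a site, the score, rank and width given are those of the highest-scoring one. Regions named were the 10 of lowest mean rank in the pair, the 5 widest, the 5 clusters with most members, the 5 of lowest mean rank met by the 3 other long lists and H3K4me2, the 3 of lowest mean rank met by none of these 3, and the 3 most remote. Sequence and gene annotation of mm9 were not used here, so motifs, promoters and gene lists were not run. Alternatives were a score of at least 5, an overlap of 50% of the shorter peak, the midpoint rule, merging within 500 bp, thresholds of 2000, 10000 and 50000 bp, replicate 2 as source, leaving out either replicate, leaving out members at FiT-seq H3K27Ac or 80 °C peaks and stitching at 5000 bp. Closing gaps of up to 76 bp, leaving out clustered members and weighting by score and width were chosen after seeing the data. Overlap, distance and interval code was tested on simulated lists. Scripts ran in Python 3.11.15; tables used pandas 2.3.3 on numpy 2.4.6, the Wilson interval was checked against scipy 1.17.1, and matplotlib 3.10.9 drew the figures.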

Additional observations from a re-analysis of the deposited data

How the results depend on the processing

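The difference between far and flanking peaks in the share met by all 3 other long FiTAc-seq lists stayed negative under every alternative, from -12.7 to -2.13 points. For H3K4me2 it turned to -0.167 points with a limit of 2000 bp. In what follows, shares are met at 65 °C 40 min, 50 °C 40 min, 50 °C 5 min, by all 3 and by H3K4me2, in that order. With a limit of 2000 bp there were 7093 far peaks, met in 53.4%, 57.2%, 28.8%, 16.8% and 1.80%, and 73.3% were clustered. The all-3 difference was then -2.13 points. With 10000 bp there were 1762, met in 40.7%, 41.7%, 24.6%, 10.3% and 4.94%, with 65.4% clustered and differences of -8.64 points for all 3 and 3.38 for H3K4me2. With 50000 bp there were 457, met in 31.5%, 27.4%, 23.4%, 5.69% and 9.63%, with differences of -12.7 and 7.94 points. With peaks within 500 bp merged there were 2014, met in 47.9%, 51.0%, 29.8%, 16.0% and 5.01%, with 38.6% clustered and differences of -4.69 and 3.62 points. By midpoint the shares were 33.3%, 36.8%, 14.8%, 4.87% and 2.55%, with 60.4% clustered and an all-3 difference of -2.74 points. With a score of at least 5 the 50 °C 40 min share was 55.5%, the 50 °C 5 min share 19.9%, the all-3 share 10.4% and the H3K4me2 share 2.39%, with an all-3 difference of -3.67 points and 64.3% clustered. With an overlap of 50% the 3 list shares were 43.0%, 45.5% and 24.3%, and 63.6% were clustered. Stitching at 5000 bp gave 65.2%. Without clustered far peaks, 1008 were left, met in 41.2%, 42.6%, 19.1%, 7.34% and 7.24%, with differences of -11.8 and 5.62 points. Clustered flanking peaks were kept in these differences, so the 2 groups were not treated alike. Without far peaks at FiT-seq H3K27Ac or 80 °C peaks the H3K4me2 share was 2.46% and its difference from the unchanged flanking peaks 0.843 points. Using a single replicate gave 6242 to 7404 far peaks, met in 28.2% to 30.6%, 30.6% to 33.3%, 14.7% to 17.0%, 6.16% to 7.39% and 1.99% to 2.32%, with H3K4me2 differences of 0.598 to 0.793 points and 70.4% to 71.1% clustered. Why values moved was not tested beyond what each setting changes by construction. No paired analysis was possible because only the 65 °C, 5 min condition has 2 replicate numbers and no result comes from a test between groups of samples. The planned annotation with genes and sequence was not run. Depth is unknown, so a missing peak does not show a missing mark.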

Other observations

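On chromosome X, outside the rule, 35 replicate 1 peaks at 65 °C and 5 min overlapped a replicate 2 peak and lay more than 5000 bp from every fresh frozen peak.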
